A study of Mus musculus with 6 samples.

Results

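The genes described here are targets of the tumour suppressor p53, read in normal mouse urothelium and in bladder lesions of mice labelled p53-/-. They were chosen by name, with earlier results of these data known, as 31 well known targets of cell cycle arrest, apoptosis, feedback and repair. Of the 31, 29 had a probe set with a single gene symbol on the arrays, among 18193 genes in all. Bax and Gdf15 were not analysed here. Where a gene had more than 1 probe set, as 16 of the 29 had, the brightest over all arrays stood for it.

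p53 is a transcription factor that is stabilised after DNA damage or oncogene signalling and binds a repeated short sequence near its target genes. Its targets stop the cell cycle, start apoptosis and autophagy, repair DNA and, through Mdm2 and related proteins, switch p53 itself off again. Many of them also respond to other factors, among them the relatives p63 and p73, so they are read in cells with and without p53. Loss of p53 is a common event in flat and invasive bladder cancer.

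Urothelial cells were cut by laser capture from stained frozen sections of bladder and their RNA was read on 6 arrays, 2 for each of 3 groups. One group was normal urothelium from wild-type animals, the next was carcinoma in situ, a flat lesion confined to the epithelium, and the last was invasive carcinoma. Both lesions carried the genotype given as H-ras+/-, p53-/- and are called double transgene in the labels, and all mice were of strain FVB/N and 8 months old. The labels name neither the promoter that drives the transgene nor the cells in which p53 was removed, and they do not tie arrays to animals, so p-values measure a spread between arrays that may be technical. There was no lesion with p53 and no normal urothelium without it, so genotype and lesion cannot be told apart in either comparison with normal urothelium. The transcripts of the altered genes were not analysed here, so the genotype itself was not checked on the arrays.

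The arrays of a group were unequally close, and some stood apart. Over the 29 target genes the standard deviation of the log2 difference between paired arrays was 0.25 in carcinoma in situ, 0.44 in invasive carcinoma and 0.77 in normal urothelium, and 0, 2 and 5 of the 29 genes lay over 2-fold apart. Xist, expressed from the inactive X chromosome, and the Y-linked Kdm5d were both well read on normal array 2 (log2 signal 13.37 and 7.62) and on invasive array 1 (10.28 and 6.58). Normal array 1 (6.85 and 8.28) and invasive array 2 (6.43 and 5.96) had low Xist with Kdm5d signal. The carcinoma in situ arrays carried Xist (13.17 and 13.33) with Kdm5d at 2.90 and 2.84. Y-linked signal was thus present on every normal and invasive array and low on both carcinoma in situ arrays, so sex and group cannot be told apart where carcinoma in situ is compared. Counts of called genes are given without each array in turn.

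To show which targets carry a p53 site close to their start, the 250 bases before each start site in RefSeq's promoter table (build GRCm38.p6) were searched for the p53 half-site consensus, which is its own reverse complement and so reads the same on both strands. Promoters were listed for 21 of the 29 genes. An exact half-site of 10 bases was found for 9 of the 21 (42.9%) and for 8.2% of 27025 genes with a listed promoter. A full site of 20 bases, which overlaps the half-site search and was allowed at most 3 mismatches outside the invariant C and G of each repeat, was found for 5 of the 21 (23.8%) and for 1.36% of all genes. The 5 full sites are printed 5′ to 3′ on the strand of the gene, with the site in capitals.
Cdkn1a, chr17:29090923-29090952, plus strand: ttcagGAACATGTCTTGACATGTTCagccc
Ccng1, chr11:40755457-40755486, minus strand: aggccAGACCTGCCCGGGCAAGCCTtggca
Aen, chr7:78895932-78895961, plus strand: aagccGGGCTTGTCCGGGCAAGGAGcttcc
Bbc3, chr7:16309481-16309510, plus strand: cccgaCTGCAAGCCCCGACTTGTCCccagc
Sesn1, chr10:41887261-41887290, plus strand: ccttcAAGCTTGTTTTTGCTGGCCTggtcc
The sites of Cdkn1a and Ccng1 had 1 mismatch and the others 3. The Cdkn1a site began 51 bases before the nearer of 2 listed start sites and 2841 bases before the other. Of these 5 genes Cdkn1a, Ccng1 and Aen rose in carcinoma in situ, as described below, while Bbc3 and Sesn1 did not pass the test in any comparison. An exact half-site without a full site was found for Ddit4l, Gadd45a, Mdm2, Ei24 and Polk. Of these, Ddit4l and Gadd45a rose in carcinoma in situ, Ei24 and Polk fell in invasive carcinoma, and Mdm2 passed in no comparison. Dram1 and Phlda3 had no match or no listed promoter to search. A match describes letters in this window and is no evidence of binding.

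Of the 29 targets 7 (24.1%) rose in carcinoma in situ against normal urothelium, beside 5.74% of all 18193 genes, by limma's moderated test at an adjusted p under 0.05. They were Dram1, Phlda3, Gadd45a, Cdkn1a, Ddit4l, Ccng1 and Aen. None fell, beside 3.04% of all genes, while 1 of the 29 was lower at an unadjusted p under 0.05 in limma. In invasive carcinoma 8 of 29 (27.6%) rose, beside 12.6% of all genes, and Mdm4, Ei24 and Polk fell (10.3%), beside 7.46%. In invasive carcinoma against carcinoma in situ Dram1 and Fas were higher and Ccng1 was lower, 6.90% and 3.45% of the 29 beside 4.18% and 1.31% of all genes. In either direction 7, 11 and 3 targets passed in the 3 comparisons, beside 8.78%, 20.1% and 5.49% of all genes. At an unadjusted p under 0.05 the counts were 12, 17 and 10, beside 24.4%, 32.9% and 18.4%. The median log2 difference of the 29 was 0.29, 0.12 and -0.32, against 0.01, 0.00 and -0.03 over all genes. The comparisons with normal urothelium share its 2 arrays.

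Arrays did not overlap between the groups for 14 of 29 targets upward and 5 downward in carcinoma in situ against normal urothelium, beside 29.3% and 25.1% of all genes. For invasive carcinoma against normal urothelium the numbers were 12 and 9, beside 29.7% and 27.1%. Between the lesions 6 targets were separately higher in invasive carcinoma and 16 lower, beside 26.4% and 31.4% of all genes. Carcinoma in situ had the highest group mean for 11 of the 29 targets (37.9%), against 29.1% of all genes.

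The calls rested on few arrays. Leaving out an array also changed the number called among all genes, so the counts below are not particular to the targets. Ranges over all genes are given in the last section. In carcinoma in situ against normal urothelium 0 of 29 targets passed in limma without either of its arrays, or with both averaged to 1 sample (9, 8 and 7 at an unadjusted p under 0.05). Without either invasive array, which lowers the degrees of freedom, Cdkn1a, Dram1 and Phlda3 passed, while 11 targets passed without normal array 1 and 7 without normal array 2. In invasive carcinoma against normal urothelium Apaf1, Dram1, Phlda3 and Plk2 passed without either carcinoma in situ array, Apaf1, Cdkn1a and Dram1 without invasive array 2, 5 targets without invasive array 1, 14 without normal array 1 and 12 without normal array 2. Between the lesions 0 passed without either carcinoma in situ array or without invasive array 2, Dram1 alone passed without invasive array 1, and 7 targets passed without either normal array.

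**Figure D1:**
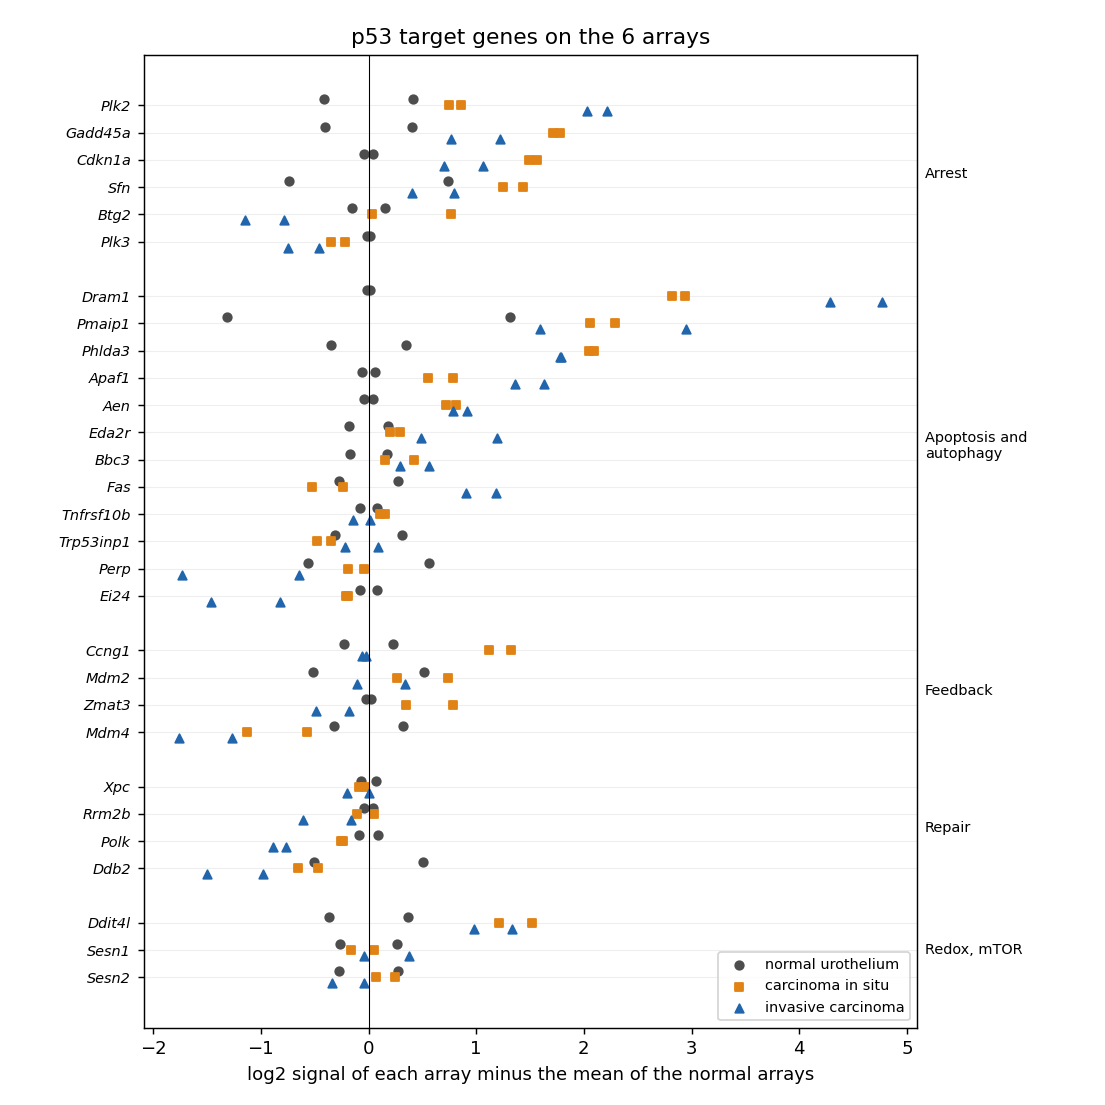
Log2 signal of the 29 p53 target genes on each of the 6 arrays, minus the mean of the normal arrays, with genes grouped by role. The Dram1 points of both lesions lie far to the right of the normal points, and the paired normal points of Pmaip1 lie 1.31 to either side of 0.

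Of 6 targets that halt the cell cycle, Cdkn1a and Gadd45a rose in carcinoma in situ, beside 5.74% of all genes. Cdkn1a and Plk2 rose in invasive carcinoma, beside 12.6% of all genes. The median log2 difference of the 6 was 1.08 in carcinoma in situ and 0.74 in invasive carcinoma, against 0.01 and 0.00 over all genes. Cdkn1a encodes p21, the inhibitor of cyclin-dependent kinases through which p53 stops the cycle. Its log2 signal was 9.64 and 9.56 on the normal arrays, 11.17 and 11.09 on the carcinoma in situ arrays and 10.66 and 10.29 on the invasive arrays. No 2 groups overlapped, and carcinoma in situ was highest. Cdkn1a rose by 1.53 ± 0.19 (log2 difference ± SE, 2.89-fold, adjusted p = 0.0117) in carcinoma in situ and by 0.88 ± 0.19 (1.84-fold, adjusted p = 0.0253) in invasive carcinoma against normal urothelium, by limma with p-values adjusted over all genes after Benjamini and Hochberg. With the mean over its probe sets the invasive call was lost (0.91, adjusted p = 0.0642). Between the lesions it differed by -0.65 ± 0.19, which did not pass (adjusted p = 0.131).

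Gadd45a, a stress sensor that holds cells at the entry to mitosis and aids DNA repair, followed the same order. Its arrays read 9.07 and 8.25 in normal urothelium, 10.38 and 10.44 in carcinoma in situ and 9.88 and 9.42 in invasive carcinoma. It rose by 1.75 ± 0.31 (3.35-fold, adjusted p = 0.0304) in carcinoma in situ, and its difference of 0.99 ± 0.31 in invasive carcinoma did not pass (adjusted p = 0.0833). The groups did not overlap in either comparison.

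Plk2, a polo-like kinase that acts early in the cell cycle, was instead highest in invasive carcinoma. It read 8.11 and 7.29 in normal urothelium, 8.56 and 8.45 in carcinoma in situ and 9.73 and 9.92 in invasive carcinoma, with no overlap between groups. It rose by 2.13 ± 0.29 (4.36-fold, adjusted p = 0.00671) in invasive carcinoma against normal urothelium. A dimmer probe set of Plk2 differed by -0.37 there and by -0.64 in carcinoma in situ, so the probe sets of this gene disagreed.

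The other arrest genes passed in no comparison. Sfn, the 14-3-3 sigma protein that keeps mitotic kinases out of the nucleus, was 1.34 ± 0.48 higher in carcinoma in situ, with normal arrays at 10.08 and 8.60. Btg2, an antiproliferative gene, was 0.96 ± 0.30 lower in invasive carcinoma than in normal urothelium on the log2 scale (adjusted p = 0.0790) and 1.36 ± 0.30 lower than in carcinoma in situ (adjusted p = 0.0666). On this probe set its invasive arrays, at 9.24 and 8.88, lay below all others. On another probe set of Btg2 the invasive arrays, at 9.32 and 8.79, overlapped the normal arrays, at 10.23 and 9.29, with a difference of -0.70. Plk3, a kinase of the same family as Plk2, differed by -0.28 ± 0.17 in carcinoma in situ and by -0.60 ± 0.17 in invasive carcinoma (adjusted p = 0.0660).

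Among 12 measured targets of apoptosis and autophagy, 3 rose in carcinoma in situ, beside 5.74% of all genes. In invasive carcinoma 5 rose and 1 fell, beside 12.6% and 7.46% of all genes, so the 1 fall was near the share of all genes. Dram1, a lysosomal membrane protein that links p53 to autophagy, changed most of all 29 genes. It read 5.45 and 5.42 in normal urothelium, 8.26 and 8.37 in carcinoma in situ and 9.73 and 10.20 in invasive carcinoma. The groups were separate and stepped upward from normal to invasive. The normal readings were dim, below the array medians of 6.08 and 6.14, where the authors' normalization compresses signals, so the folds over them are uncertain. Dram1 rose by 2.88 ± 0.21 (7.36-fold, adjusted p = 0.00438) in carcinoma in situ and by 4.53 ± 0.21 (23.1-fold, adjusted p = 0.000438) in invasive carcinoma. It was also 1.65 ± 0.21 higher in invasive carcinoma than in carcinoma in situ (3.14-fold, adjusted p = 0.0125).

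Phlda3, which blocks the kinase Akt at the membrane, was high in both lesions. Its normal arrays read 8.46 and 9.16, those of carcinoma in situ 10.90 and 10.85, and the invasive arrays both 10.59. It rose by 2.07 ± 0.25 (4.20-fold, adjusted p = 0.0119) and by 1.78 ± 0.25 (3.44-fold, adjusted p = 0.00758). Between the lesions the difference was -0.29, with a 95% interval from -0.92 to 0.34.

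Aen, a nuclease active in apoptosis, moved less, but evenly on its brightest probe set. It read 8.33 and 8.41 in normal urothelium, 9.18 and 9.09 in carcinoma in situ and 9.15 and 9.28 in invasive carcinoma, so the lesions overlapped each other and neither overlapped normal urothelium. The rises were 0.76 ± 0.16 (1.70-fold, adjusted p = 0.0416) and 0.85 ± 0.16 (1.80-fold, adjusted p = 0.0168). With the deposited values quantile normalized again, the adjusted p in carcinoma in situ was 0.0732. Dimmer probe sets of Aen differed by 1.16, 0.62 and -0.15 in carcinoma in situ, so they disagreed there. In invasive carcinoma they differed by 0.84, 0.67 and 0.14.

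Apaf1, the scaffold of the apoptosome that activates caspases, and Fas, a death receptor, rose in invasive carcinoma. Apaf1 read 6.89 and 6.77 in normal urothelium, 7.39 and 7.62 in carcinoma in situ and 8.46 and 8.19 in invasive carcinoma, with no overlap. It rose by 1.50 ± 0.18 (2.82-fold, adjusted p = 0.00484) in invasive carcinoma, and its difference of 0.67 ± 0.18 in carcinoma in situ did not pass (adjusted p = 0.0896). Fas read 5.86 and 5.31 in normal urothelium, 5.06 and 5.35 in carcinoma in situ and 6.49 and 6.77 in invasive carcinoma. Only the invasive arrays stood apart. The normal and carcinoma in situ readings of Fas were dim, below the medians of their arrays, so the folds over them are uncertain. A filter for a mean log2 signal of at least 6 left Fas out. Fas rose by 1.04 ± 0.25 (2.06-fold, adjusted p = 0.0368) against normal urothelium and was 1.42 ± 0.25 higher in invasive carcinoma than in carcinoma in situ (2.69-fold, adjusted p = 0.0336).

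Ei24, a membrane protein of the endoplasmic reticulum with roles in autophagy, was the apoptosis and autophagy target that fell. It read 11.13 and 11.28 in normal urothelium, 11.01 and 11.00 in carcinoma in situ and 10.39 and 9.74 in invasive carcinoma, and it fell by 1.14 ± 0.25 in invasive carcinoma (2.21-fold, adjusted p = 0.0269). Perp, a desmosomal protein of stratified epithelia that is also a target of p63, was 1.19 ± 0.49 lower there on the log2 scale and did not pass (adjusted p = 0.159). Its arrays read 13.47 and 12.34 in normal urothelium against 12.26 and 11.18 in invasive carcinoma.

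The BH3-only genes, whose products trigger the mitochondrial route of apoptosis, did not pass. Pmaip1, also called Noxa, had the second largest log2 difference of the 29 genes in both comparisons with normal urothelium, 2.18 ± 0.89 and 2.27 ± 0.89, but its normal arrays read 9.44 and 6.82 and the adjusted p were 0.210 and 0.142. Bbc3, also called Puma, differed by 0.29 ± 0.21 and 0.43 ± 0.21. The death receptor genes Tnfrsf10b (0.13 ± 0.16 and -0.06 ± 0.16) and Eda2r (0.24 ± 0.28 and 0.84 ± 0.28) and the autophagy gene Trp53inp1 (-0.41 ± 0.26 and -0.07 ± 0.26) did not pass in carcinoma in situ or invasive carcinoma. Eda2r lies on the X chromosome.

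**Figure D2:**
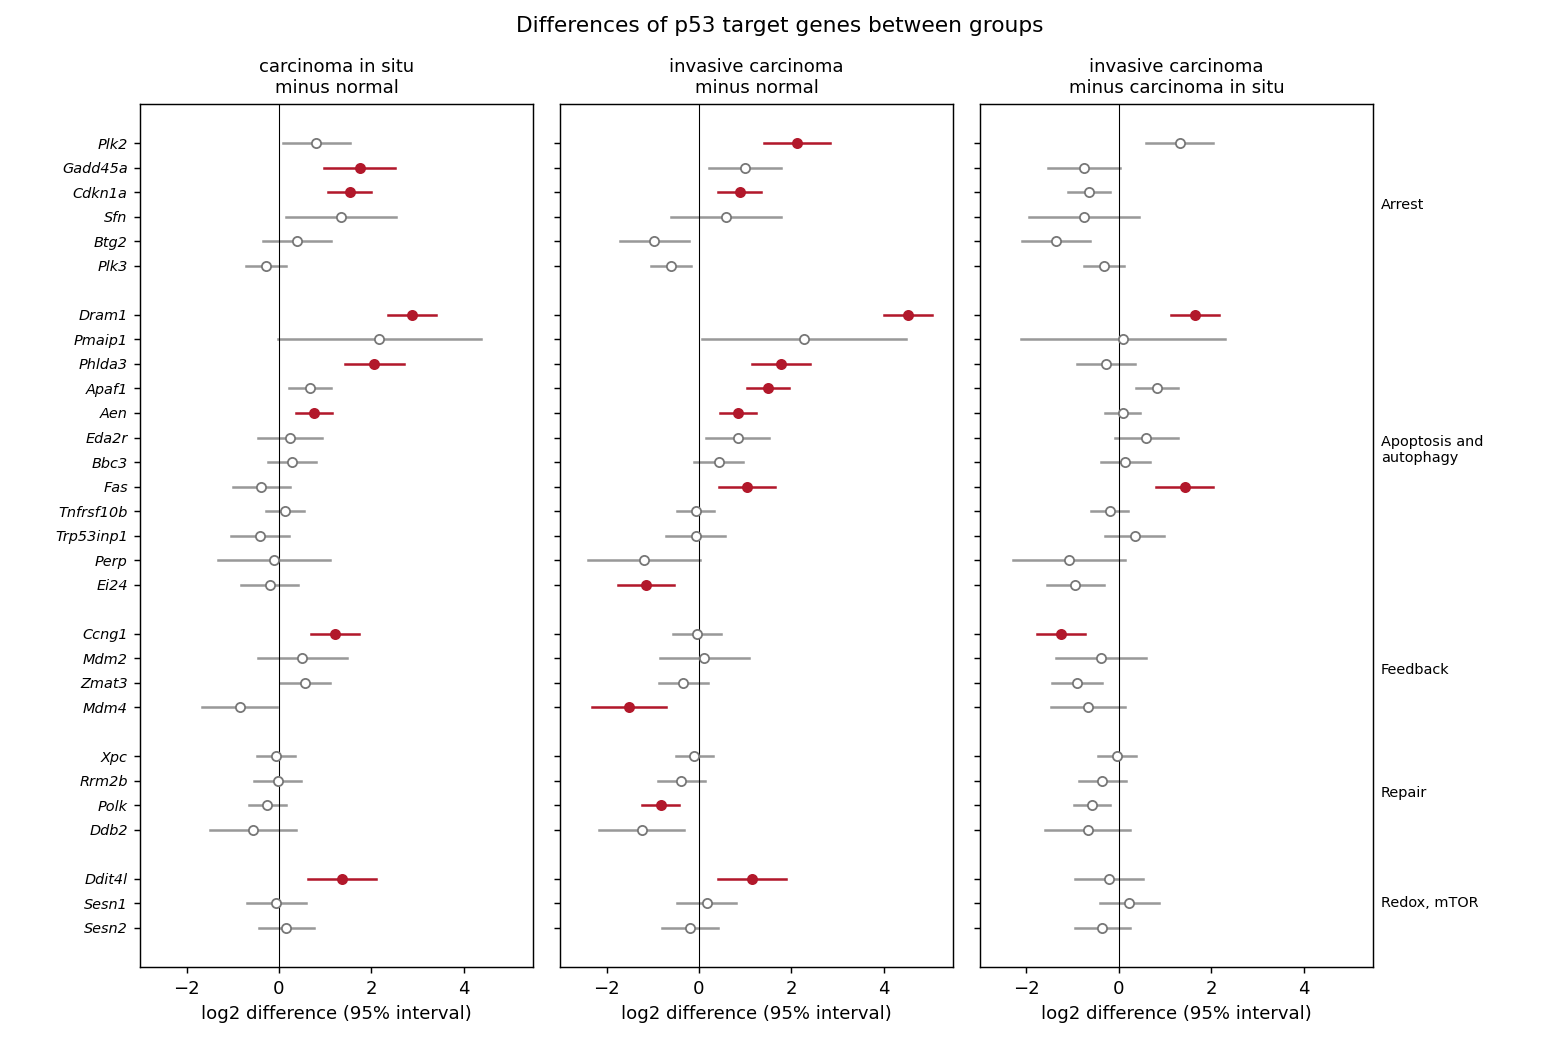
Log2 differences of the 29 genes in the 3 comparisons, with 95% intervals from the limma model, and filled red points for an adjusted p under 0.05. Dram1 is called in all 3 panels, and Ccng1 is called higher in carcinoma in situ and lower in invasive carcinoma against carcinoma in situ.

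Of 4 feedback targets, Ccng1 rose in carcinoma in situ, beside 5.74% of all genes, and Mdm4 fell in invasive carcinoma, beside 7.46%. Ccng1, cyclin G1, which recruits a phosphatase to Mdm2, was highest in carcinoma in situ. Its arrays read 10.61 and 11.07 in normal urothelium, 12.16 and 11.96 in carcinoma in situ and 10.78 and 10.82 in invasive carcinoma, so on this probe set the invasive arrays lay within the normal range. A dimmer probe set read 8.79 and 8.47 in normal urothelium and 7.91 and 7.84 in invasive carcinoma, a difference of -0.75, so the probe sets disagreed there, while all 3 were lower in invasive carcinoma than in carcinoma in situ on average. Ccng1 rose by 1.22 ± 0.21 in carcinoma in situ (2.33-fold, adjusted p = 0.0264) and was 1.26 ± 0.21 lower on the log2 scale in invasive carcinoma than in carcinoma in situ (2.40-fold, adjusted p = 0.0283). In invasive carcinoma against normal urothelium it differed by -0.04, with a 95% interval from -0.56 to 0.48. With the values quantile normalized again both calls were lost (adjusted p = 0.0702 and 0.0739).

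Mdm4, which binds p53 and blocks its activity, was lowest in invasive carcinoma. It read 9.91 and 9.28 in normal urothelium, 8.46 and 9.02 in carcinoma in situ and 8.32 and 7.83 in invasive carcinoma, and it fell by 1.52 ± 0.33 in invasive carcinoma (2.86-fold, adjusted p = 0.0267). In carcinoma in situ the difference was -0.85 ± 0.33 (adjusted p = 0.183). Of 3 dimmer probe sets of Mdm4, 1 differed by -0.82 and -1.02 in the lesions and the others by 0.01 to 0.40, and the mean of all its probe sets differed by -0.57 in invasive carcinoma.

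Mdm2, the ubiquitin ligase that degrades p53 and is itself a classical p53 target, did not pass in any comparison. Its arrays read 9.89 and 8.86 in normal urothelium, 9.64 and 10.12 in carcinoma in situ and 9.72 and 9.27 in invasive carcinoma, and all groups overlapped on this probe set. The differences were 0.50 (95% interval from -0.46 to 1.47) and 0.12 (from -0.85 to 1.09), and both intervals include a 2-fold rise. A dimmer probe set of Mdm2 differed by 0.42 and 0.62 in the lesions and the dimmest by -0.60 and -0.63, so its probe sets disagreed. Zmat3, a zinc finger protein that binds RNA, was 0.57 ± 0.22 higher in carcinoma in situ and 0.33 ± 0.22 lower in invasive carcinoma than in normal urothelium on the log2 scale. It did not pass in any comparison (adjusted p = 0.0851 between the lesions).

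On their brightest probe sets, all 4 repair and nucleotide supply targets had negative differences in both comparisons with normal urothelium. The medians were -0.15 and -0.60. A dimmer probe set of Ddb2 differed by 0.10 in carcinoma in situ, and dimmer ones of Rrm2b went both ways. In invasive carcinoma 1 of the 4 fell, beside 7.46% of all genes. Polk, a DNA polymerase that copies past damaged bases, read 8.91 and 9.08 in normal urothelium, 8.73 and 8.75 in carcinoma in situ and 8.11 and 8.22 in invasive carcinoma. The groups were separate and stepped downward. Polk fell by 0.83 ± 0.16 in invasive carcinoma (1.77-fold, adjusted p = 0.0193). Ddb2, a damage sensor of nucleotide excision repair, was 1.24 ± 0.37 lower there on the log2 scale (adjusted p = 0.0732), with its invasive arrays at 8.63 and 8.11 below normal arrays at 9.10 and 10.11.

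Xpc, which acts beside Ddb2 in finding damage, was level. Its 6 arrays read 8.67 and 8.53, 8.51 and 8.57, and 8.61 and 8.41, and the difference was -0.06 in carcinoma in situ (95% interval from -0.47 to 0.35) and -0.10 in invasive carcinoma (from -0.50 to 0.31). Rrm2b, the ribonucleotide reductase subunit that p53 induces, differed by -0.03 ± 0.20 and -0.38 ± 0.20. Dimmer probe sets of Rrm2b differed by 0.57, 0.65 and -0.45 in carcinoma in situ. In invasive carcinoma they differed by 0.25, 0.28 and -0.85, so its probe sets disagreed.

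Of 3 measured targets that act on redox state and mTOR, Ddit4l rose in both lesions, beside 5.74% and 12.6% of all genes. Ddit4l, a paralogue of the mTOR inhibitor Ddit4, was dim, with 4.78 and 5.52 in normal urothelium, 6.67 and 6.36 in carcinoma in situ and 6.13 and 6.48 in invasive carcinoma. Both lesions lay above normal urothelium and overlapped each other. The rises were 1.36 ± 0.30 (2.57-fold, adjusted p = 0.0495) and 1.15 ± 0.30 (2.23-fold, adjusted p = 0.0467), and small signals are compressed by the authors' normalization. The sestrin genes Sesn1 (-0.06 ± 0.26 and 0.17 ± 0.26) and Sesn2 (0.16 ± 0.24 and -0.19 ± 0.24), which restrain mTOR under stress, did not pass.

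Other genes of the pathway were read from lists of other p53 targets and of p53 regulators. Of 28 other p53 targets 4 rose in carcinoma in situ, beside 5.74% of all genes, and 3 rose and 2 fell in invasive carcinoma, which is near the 12.6% and 7.46% of all genes. Between the lesions 0 passed (3 were lower at an unadjusted p under 0.05 in limma). The rises in carcinoma in situ were Ak1 (1.67 ± 0.16), an adenylate kinase, Gpx1 (1.47 ± 0.21), a glutathione peroxidase, Kank3 (1.14 ± 0.18) and Cop1 (1.12 ± 0.25), a ubiquitin ligase that acts on p53. In invasive carcinoma Ak1 (1.63 ± 0.16), Gpx1 (1.31 ± 0.21) and Kank3 (1.10 ± 0.18) rose and the epoxide hydrolase gene Ephx1 (-1.11 ± 0.29) fell, as did the repair nuclease gene Ercc5 (-0.70 ± 0.18), named here beyond the rule to complete the count.

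Of 20 regulators and cofactors of p53, 3 rose in carcinoma in situ, beside 5.74% of all genes, and 2 rose and 2 fell in invasive carcinoma, also near the 12.6% and 7.46% of all genes. Cdkn2a, the locus of the kinase inhibitor Ink4a and of Arf, which restrains Mdm2, had the largest differences. It read 4.41 and 5.99 in normal urothelium, 9.12 and 8.89 in carcinoma in situ and 11.19 and 11.79 in invasive carcinoma, with no overlap between groups. It rose by 3.81 ± 0.53 (adjusted p = 0.0155) and by 6.29 ± 0.53 (adjusted p = 0.00157). Trp63, which encodes p63, read 10.30 and 10.51, 12.11 and 12.21, and 11.10 and 10.11 in the 3 groups and rose in carcinoma in situ (1.76 ± 0.34, adjusted p = 0.0355). The coactivator gene Crebbp (1.34 ± 0.23 and 1.09 ± 0.23) rose in both lesions, and the damage kinase gene Atr (-1.38 ± 0.34) and Ppp1r13b (-1.35 ± 0.26), which encodes a p53 binding protein, fell in invasive carcinoma. Between the lesions 0 of the 20 passed in limma (1 higher and 1 lower at an unadjusted p under 0.05).

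The next list held cell cycle genes that p53 is known to hold down through p21 and the DREAM repressor complex. Of 16 measured, 9 rose in carcinoma in situ and 11 in invasive carcinoma, beside 5.74% and 12.6% of all genes. In either, 0 fell (0 lower also at an unadjusted p under 0.05 in limma), beside 3.04% and 7.46% of all genes. The median log2 differences were 1.37 and 1.75, against 0.01 and 0.00 over all genes. The largest in carcinoma in situ were Birc5 (3.94 ± 0.29), which encodes survivin, Bub1 (3.49 ± 0.20), a spindle checkpoint kinase, Cdk1 (3.27 ± 0.27), the mitotic kinase, and Cdc20 (2.97 ± 0.21), an activator of the anaphase ligase. In invasive carcinoma they were Birc5 (4.58 ± 0.29), Cdc20 (3.81 ± 0.21), the centromere histone gene Cenpa (3.74 ± 0.17) and Bub1 (3.57 ± 0.20). Between the lesions 0 passed in limma (3 higher at an unadjusted p under 0.05).

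Genes of other stress and growth signals that share some of these targets also moved. Of 16 immediate early genes 7 rose in carcinoma in situ and 10 in invasive carcinoma, beside 5.74% and 12.6% of all genes. Among them were Jun (4.65 ± 0.27 and 3.77 ± 0.27) and Egr1 (2.92 ± 0.26 and 4.12 ± 0.26), transcription factors induced by growth factors. Between the lesions Egr2, of the same family as Egr1, was higher in invasive carcinoma (2.84 ± 0.16). The integrated stress response list of 13 genes includes Sesn2. Of these 13, 2 rose and 1 fell in carcinoma in situ, beside 5.74% and 3.04% of all genes. In invasive carcinoma 7 rose and 1 fell, beside 12.6% and 7.46% of all genes. Nupr1, a stress-induced nuclear protein, rose by 4.71 ± 0.17 and 5.45 ± 0.17. Between the lesions Phgdh (3.24 ± 0.49), an enzyme of serine synthesis, and Chac1 (1.90 ± 0.25), which degrades glutathione, were higher in invasive carcinoma. Of 6 housekeeping genes 0 passed in any comparison by limma (0, 2 and 0 at an unadjusted p under 0.05). Whether these signals contribute to the target genes was not tested.

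**Figure D3:**
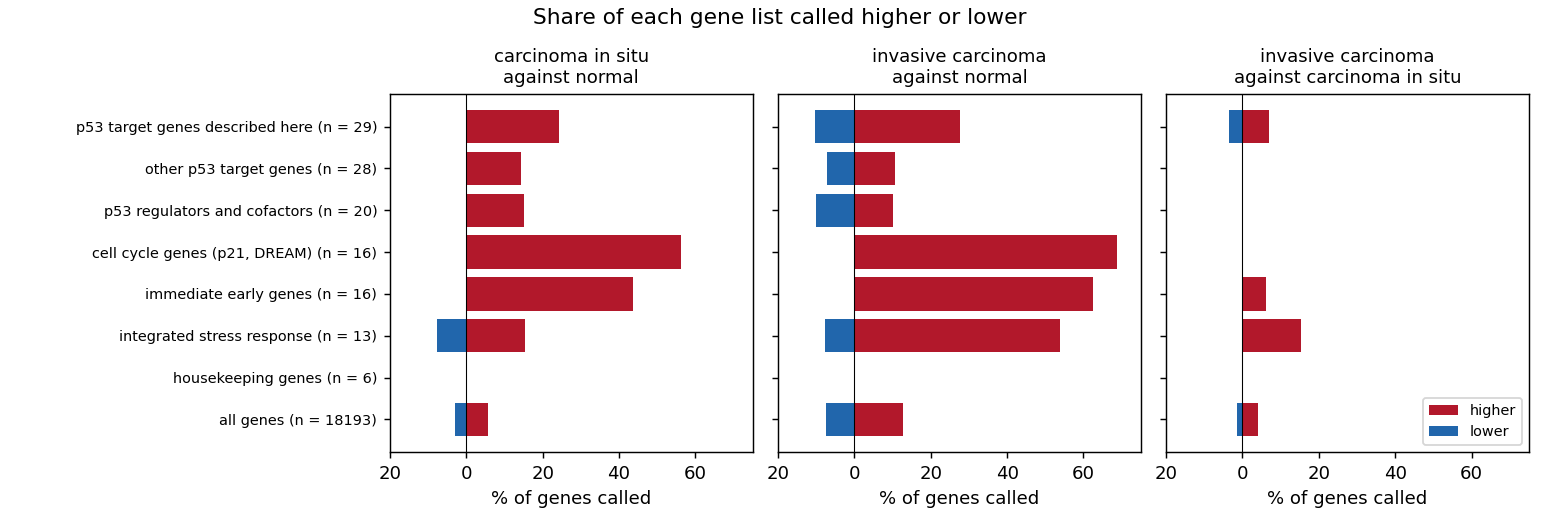
Percent of the measured genes of each list called higher (red, to the right) or lower (blue, to the left) at an adjusted p under 0.05 in the 3 comparisons. The p53 targets reach 24.1% higher in carcinoma in situ beside 5.74% of all genes, and of the lists plotted, which leave out cell type markers, the cell cycle list has the longest bars in both comparisons with normal urothelium.

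The captured tissue differed in its cell types as well, and in bulk RNA fewer cells of a type and less RNA per cell cannot be told apart. Over all genes 5.74% rose and 3.04% fell in carcinoma in situ, and 12.6% rose and 7.46% fell in invasive carcinoma. Of 10 macrophage markers 1 rose in carcinoma in situ and 9 in invasive carcinoma, and their summed linear signal ranged from 2866 to 3273 on the normal arrays, from 6755 to 7155 in carcinoma in situ and from 20442 to 31293 in invasive carcinoma. Of 10 fibroblast markers 1 rose and 1 fell in carcinoma in situ and 8 rose in invasive carcinoma. Their sums were 4399 to 6758, 2246 to 2324 and 35956 to 58808. Of 10 endothelial markers 5 rose in carcinoma in situ and 10 in invasive carcinoma, with sums of 707 to 825, 2021 to 2126 and 2289 to 2771. Of 11 luminal urothelial markers 3 fell in carcinoma in situ and 6 in invasive carcinoma, and their sums were 71942 to 105606, 55531 to 58063 and 31121 to 36040. Of 9 basal markers, among which Trp63 is listed too, 4 rose in carcinoma in situ and 3 in invasive carcinoma, with sums of 8301 to 14602, 36189 to 37500 and 26094 to 38808. Luminal and basal markers were thus read in all 3 groups, and fibroblast and macrophage markers were highest in the invasive captures. Of 10 smooth muscle markers Smtn alone rose in carcinoma in situ, where the other 9 had negative differences (7 at an unadjusted p under 0.05, none adjusted) and the median log2 difference was -1.24, and 2 rose and 1 fell in invasive carcinoma. Their sums were 3034 to 6298 in normal urothelium, 1934 to 1971 in carcinoma in situ and 8419 to 15258 in invasive carcinoma. Of 7 neutrophil markers 2 rose in carcinoma in situ and 4 in invasive carcinoma, where 1 of 7 T and NK cell markers and 1 of 5 B and plasma cell markers rose too. In invasive carcinoma the macrophage, fibroblast, endothelial, basal, smooth muscle and neutrophil sums were above normal urothelium and the luminal sums below it. The T and NK cell sums and the B and plasma cell sums overlapped normal urothelium. These differences stood beside the 8 rises and 3 falls of the 11 targets called there, and their part in those results was not tested. In carcinoma in situ the endothelial, basal, macrophage and neutrophil sums were above normal urothelium. The luminal, fibroblast, smooth muscle and B and plasma cell sums were below it, and the T and NK cell sums overlapped it. All 7 targets called in carcinoma in situ rose beside these differences, whose part in the rises was not tested either. The deposited scale has no zero, so absence of a marker cannot be read from it.

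**Figure D4:**
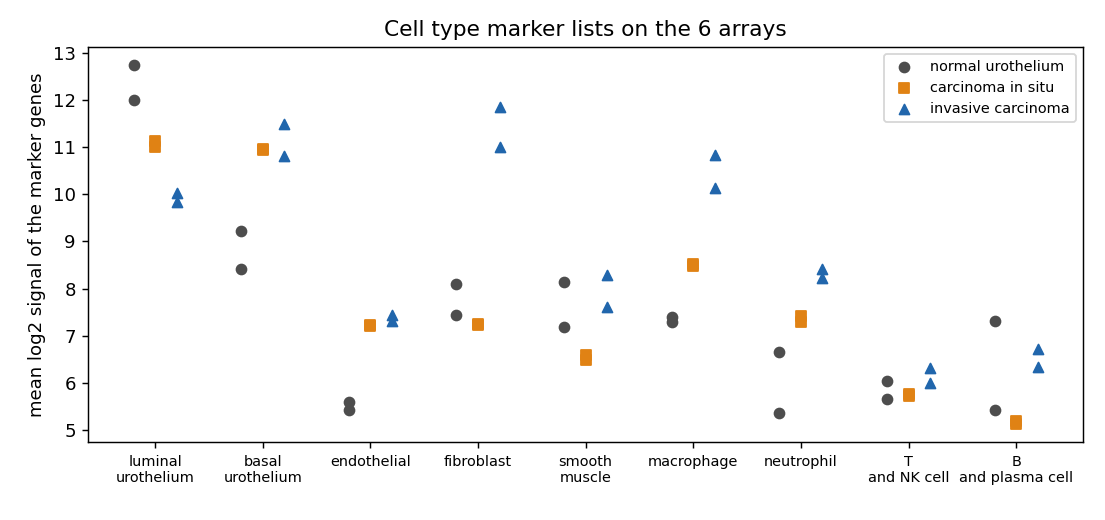
Mean log2 signal of 9 cell type marker lists on each of the 6 arrays. Fibroblast and macrophage markers are highest on both invasive arrays, luminal markers are highest on the normal arrays, and endothelial markers are higher in both lesions.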

How the data were processed

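Per the labels' protocols, urothelium was laser captured from frozen bladder sections and 100 ng of RNA per sample was labelled for Affymetrix 3' arrays. The authors deposited log2 signals of 45101 probe sets made with RMA and Partek, per the submitters' processing notes, which give no version. RMA removes differences in total RNA and compresses small signals. No genome build is named in those notes. Depth has no meaning for arrays, and 2 arrays per group limit the precision. A table of fold changes by the authors was not used.

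Probe sets were named through the platform annotation, and 34945 with 1 symbol, controls left out, gave 18193 genes, each by its brightest probe set, with current symbols from RefSeq (GRCm38.p6). All 6 arrays entered 1 group-means model in limma 3.58.1 (R 4.3.3), with 3 residual and 2.69 prior degrees of freedom. Two-sided p-values were Benjamini-Hochberg adjusted over all genes and called under 0.05. Values on each array are given for members called in any comparison, others by difference, with array values of Sfn, Btg2, Perp, Pmaip1, Mdm2, Xpc and Ddb2 added after they were seen, and of each other list up to 4 called members with the largest differences are named. The analysis was tested on simulated data. The members and lists were chosen with earlier results of these data known. Alternatives left out arrays, or changed the fit, filter, probe set or scaling.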

Additional observations from a re-analysis of the deposited data

Results flagged for a closer look

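The change from normal urothelium differed between the lesions for 3 of the 29 targets (10.3%), beside 5.49% of all genes. The test was the direct one of invasive carcinoma against carcinoma in situ. Dram1 was high in carcinoma in situ and 1.65 higher still in invasive carcinoma on the log2 scale. Fas was 1.42 higher in invasive carcinoma, where carcinoma in situ lay 0.38 below normal urothelium without passing. Its readings in carcinoma in situ and normal urothelium were dim. Ccng1 had a difference of -1.26, as it rose in carcinoma in situ and, on its brightest probe set, lay within the normal range in invasive carcinoma, while a dimmer probe set differed by -0.75 from normal urothelium there. Leaving out a carcinoma in situ array, whichever it was, ended all 3 calls.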

How the results depend on the processing

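Over 14 alternatives, the 290 values of the 21 called target results all kept their sign, and 188 stayed past the threshold. Of 916 values of results that had not passed, 27 changed sign. Leaving out single arrays gave 0 to 11 targets and 0 to 4196 genes in carcinoma in situ against normal urothelium, 3 to 14 targets and 1637 to 5699 genes in invasive carcinoma against normal urothelium, and 0 to 7 targets and 50 to 2493 genes between the lesions. In the same order, with the carcinoma in situ arrays averaged to 1 sample, 0, 4 and 0 targets and 0, 1832 and 55 genes passed in limma. These fits, and those without 1 array, leave a group with a lone array that is assumed to vary like the others. Without both arrays of mixed Xist and Y-linked signal, which is not among the 14, 13, 19 and 17 targets and 6352, 8165 and 5897 genes passed. That fit leaves 1 normal and 1 invasive array and takes all spread from the carcinoma in situ pair, the closest (SD 0.22 over all genes, against 0.69 and 0.42), so its counts say nothing about stability. Fits of only the compared groups gave 3, 4 and 7 targets and 947, 1832 and 2493 genes. Differences between arrays 1 and 2 correlated over all genes by -0.39 for normal urothelium and carcinoma in situ and by 0.37 for normal urothelium and invasive carcinoma. For the 2 lesions the correlation was -0.34. Array numbers thus did not pair the groups in 1 direction, and whether arrays share a factor across groups was not tested. With a replicate block by array number 5, 9 and 1 targets and 1146, 3315 and 887 genes passed. Quantile normalization again ended the calls of Aen and Ccng1 in carcinoma in situ and of Ccng1 between the lesions, while Apaf1 newly passed there. The mean over probe sets ended the call of Cdkn1a in invasive carcinoma. With that mean Ddb2 and Plk3 newly passed as lower in invasive carcinoma than in normal urothelium, and Plk2 as higher between the lesions. The cause of these changes was not tested. With 2 arrays per group only large differences could pass.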
